A study of Mus musculus with 2 samples.

Results

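The 10 genes described here are members of the BCL2 family, chosen by name and matched to the gene symbols of the deposited tables, and they are 10 of the 27998 genes listed there. 5 promote cell death: the BH3-only genes Bbc3 (PUMA), Pmaip1 (NOXA) and Bcl2l11 (BIM) and the effectors Bax and Bak1. The other 5, Bcl2, Bcl2l1 (BCL-XL), Mcl1, Bcl2a1b and Bcl2a1d (BFL-1/A1 copies), promote survival. The rule that names them uses no expression value, but they were chosen with earlier results of these data known. All 10 were found on 1 row each.

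BCL2 family proteins control the release of cytochrome c from mitochondria. The effectors form pores in the outer mitochondrial membrane, the pro-survival proteins hold them in check, and BH3-only proteins bind the pro-survival proteins or the effectors and so tip the cell towards apoptosis. In activated CD8+ T cells, loss of cytokine or nutrients is a known trigger of this pathway, and BIM, PUMA, NOXA, MCL-1 and BCL-2 are its best studied members there.

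The cells were CD8+ T cells from spleens and lymph nodes of OT-I mice aged 8 to 12 weeks, whose T cells bear a transgenic receptor specific for the ovalbumin peptide SIINFEKL. Both groups had 48 h of activation with that peptide and 100 U/ml IL-2, and afterwards spent 20 h either in 11 mM glucose (control) or under transient glucose restriction in 1 mM glucose (TGR). Each condition had 1 library of single cells (10x Chromium, v2 kit), with no replicate and no statement of how many mice were pooled. The sample descriptions speak of 3 days in culture ahead of the treatment, which does not match the 48 h of the protocol. The labels do not say whether glucose was given back before the cells were captured.

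After removal of barcodes with 10% or more mitochondrial counts, 3127 control and 2546 TGR cells remained, with 14730128 and 19696068 unique molecular identifiers (UMIs, 1 per captured RNA molecule). TGR cells were deeper, with a median of 6265.5 UMIs against 4030. The median share of UMIs on ribosomal protein genes was 49.3% in TGR and 39.5% in control cells, which lowers the CPM of all other genes in TGR. Of 8 CD8 T cell markers, 5 were matched by symbol and all 5 were detected in both libraries, at 2288 CPM in sum in control and 1838 CPM in TGR. The markers of other cell types were at or near 0, the largest sum being 25.9 CPM in control and 18.3 CPM in TGR for 5 B cell genes, of which 1 had no UMI. The libraries shared 11 cell barcodes, and doublets were left in. Cell cycle phases differed strongly: 3.46% of control and 39.3% of TGR cells were called G1, 28.3% and 30.6% S, and 68.2% and 30.1% G2/M, of 3036 and 2546 cells with at least 1500 UMIs.

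Levels are given as CPM, the UMIs of a gene per 1000000 UMIs of the library or of the cells in question. The method counts molecules from the 3′ end of the RNA, so levels of different genes are compared per UMI, without division by length. The 95% intervals express counting error and nothing else. A test of the conditions needs replicates, so none was made and each difference describes these 2 libraries. A gene was scored when it had at least 10 CPM in at least 1 of the libraries or groups compared, and called higher or lower when it differed at least 1.5-fold with an interval that excluded a ratio of 1. In droplet data some UMIs come from free RNA. That part was not estimated, and no cell type that should lack these genes was present to measure it against.

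All 3 BH3-only members were higher in the TGR library, while 1 of the 2 effectors was lower and none of the 5 pro-survival members was called in either direction. Of the 9 members scored, 3 were called higher and 1 lower, where 9.33% of 6667 scored genes were called higher and 21.8% lower. The median log2 ratio of TGR over control was 0.18 over the scored members and -0.16 over all scored genes. Pmaip1 was scored only through its TGR level, so its place among the scored genes already needed a difference. Bcl2a1d was the member not scored.

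Bbc3 (ENSMUSG00000002083, chr7:16308393-16318205 in GRCm38, plus strand) encodes PUMA, a BH3-only protein that binds every pro-survival member. It had 280 UMIs and 19.0 CPM in control, and 1667 UMIs and 84.6 CPM in TGR, a 4.45-fold higher level (3.92 to 5.07). A UMI of Bbc3 was seen in 8.22% of control and 39.5% of TGR cells, and in 3.29% and 10.7% when each cell was thinned to 1500 UMIs. By level Bbc3 ranked below 6 other members in control, and below Bcl2 and Bax alone in TGR.

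Bcl2l11 (chr2:128126038-128162547, plus strand) encodes BIM, the BH3-only protein needed for much of the death of T cells deprived of cytokine. The 527 control and 1349 TGR UMIs of Bcl2l11 gave levels of 35.8 and 68.5 CPM, 1.91-fold higher in TGR (1.73 to 2.12). Pmaip1 encodes NOXA, which binds MCL-1 and A1. Pmaip1 was the rarest of the 3, with 83 control and 206 TGR UMIs or levels of 5.63 and 10.5 CPM, 1.85-fold higher in TGR (1.43 to 2.42). Both genes differed less than Bbc3, and their intervals overlap each other but not that of Bbc3.

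Start regions of Bbc3 and Bcl2l11 are shown because, of the members searched, these alone held a forkhead (FOXO) motif. Both messages were higher in TGR. In RefSeq promoter windows of GRCm38, 250 bases before each start, 9 of the 10 members had 14 windows in all. Pmaip1 had no window and was not searched. The motif GTAAACA was searched on both strands and lies in 3.17% of 32851 such windows. Among the members it was found in 1 of the 3 windows of Bbc3, on the opposite strand. Its first base there lies 167 bases before the start. It was also found in 1 of the 2 windows of Bcl2l11, 227 bases before the start. That Bbc3 window lies within the annotated span of Bbc3, before an inner start. The Bcl2l11 window ends directly before the annotated span of Bcl2l11. Both windows are on the plus strand, at chr7:16310011-16310260 and chr2:128125788-128126037, contain no annotated exon base, and are printed 5′ to 3′ with the motif in capitals:
Bbc3: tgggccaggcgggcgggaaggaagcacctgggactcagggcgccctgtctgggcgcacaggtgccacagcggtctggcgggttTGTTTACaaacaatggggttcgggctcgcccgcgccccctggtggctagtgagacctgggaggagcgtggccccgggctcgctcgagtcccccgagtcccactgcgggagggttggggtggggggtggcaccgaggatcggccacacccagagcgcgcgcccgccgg
Bcl2l11: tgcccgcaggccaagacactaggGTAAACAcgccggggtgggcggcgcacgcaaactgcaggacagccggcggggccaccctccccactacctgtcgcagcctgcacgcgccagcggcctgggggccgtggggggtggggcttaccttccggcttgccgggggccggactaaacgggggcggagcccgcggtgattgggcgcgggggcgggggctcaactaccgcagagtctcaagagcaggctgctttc
The ATF4/CHOP composite element TGATGNAA (3.45% of windows) and the cAMP response element TGACGTCA (1.55%) were in neither gene's windows. Among the members the composite element was found only before a start of Bcl2a1b, 40 bases upstream, where the annotation already places an exon of Bcl2a1b. A match of letters is a description and not a binding site, and none of the other members' windows held any of the 3 motifs.

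Both effectors had lower values in TGR, and Bak1 passed the limit. Bak1 (chr17:27019810-27029009, minus strand), which encodes a pore-forming protein resident in mitochondria, had 77.3 CPM in control and 38.3 CPM in TGR, from 1138 and 754 UMIs. This was 2.02-fold lower (1.84 to 2.22). Bax (chr7:45461697-45466898, minus strand), whose protein moves from the cytosol to mitochondria when activated, had 374 CPM in control and 264 CPM in TGR, a log2 ratio of -0.50 (-0.56 to -0.45), short of the 1.5-fold limit. Bax remained the most abundant pro-death message in both libraries, and it alone had more UMIs than the 3 BH3-only genes together.

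Among the pro-survival genes Bcl2 was by far the most abundant. Bcl2 (chr1:106538178-106714274, minus strand), which encodes the founding member of the family, had 590 CPM in control and 538 CPM in TGR, a log2 ratio of -0.13 (-0.17 to -0.09) that turned to 0.13 when the totals left out ribosomal protein and mitochondrial genes. Counted per cell it had 2.78 UMIs in control and 4.17 in TGR, since TGR cells had more UMIs in all. Mcl1 (chr3:95658788-95663176, plus strand) encodes a short-lived guard against BAK. Its level was 55.2 and 62.6 CPM, a log2 ratio of 0.18 (0.05 to 0.31). Bcl2l1 (chr2:152780668-152831728, minus strand), which encodes BCL-XL, had 26.4 and 21.2 CPM, a log2 ratio of -0.32 (-0.52 to -0.12).

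The Bcl2a1 genes are related copies induced by antigen receptor signals. Of the 50-base words in the last 500 bases of the Bcl2a1b transcript, 66.7% also occur in Bcl2a1d. The share is 45.7% for Bcl2a1a and 0.44% for Bcl2a1c. Reads may thus be split between copies or lost, and the values of Bcl2a1b and Bcl2a1d are uncertain. Bcl2a1b (chr9:89199209-89207827, plus strand) had 12.1 CPM in control and 16.6 CPM in TGR, a log2 ratio of 0.45 (0.19 to 0.73). Bcl2a1d (chr9:88723285-88731914, minus strand) had 19 and 30 UMIs, or 1.29 and 1.52 CPM. Seen as shares of cells thinned to 1500 UMIs, Bcl2 was found in 57.3% of control and 51.4% of TGR cells, Bax in 38.9% and 31.2%, and Bak1 in 10.4% and 6.44%. Without thinning the shares were 85.1% and 86.9%, 69.7% and 72.3%, and 28.6% and 24.4%, in the same order. Mcl1 was found in 8.33% and 7.89% of thinned cells, and Bcl2l11 in 5.53% and 9.23%. Unthinned, Mcl1 was found in 21.5% and 33.8% and Bcl2l11 in 14.6% and 35.1%.

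Of the genes annotated over other members, the overlapping Ggnbp1 had 15 and 22 UMIs against 1138 and 754 of Bak1, and the antisense D630008O14Rik 2 and 5 UMIs against 8691 and 10606 of Bcl2. The annotation also lists Gm45808 over Bax and Gm37053 and Mir3473f over Bcl2, on the same strand. These were not analysed here, so what they add to the counts is unknown.

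**Figure D1:**
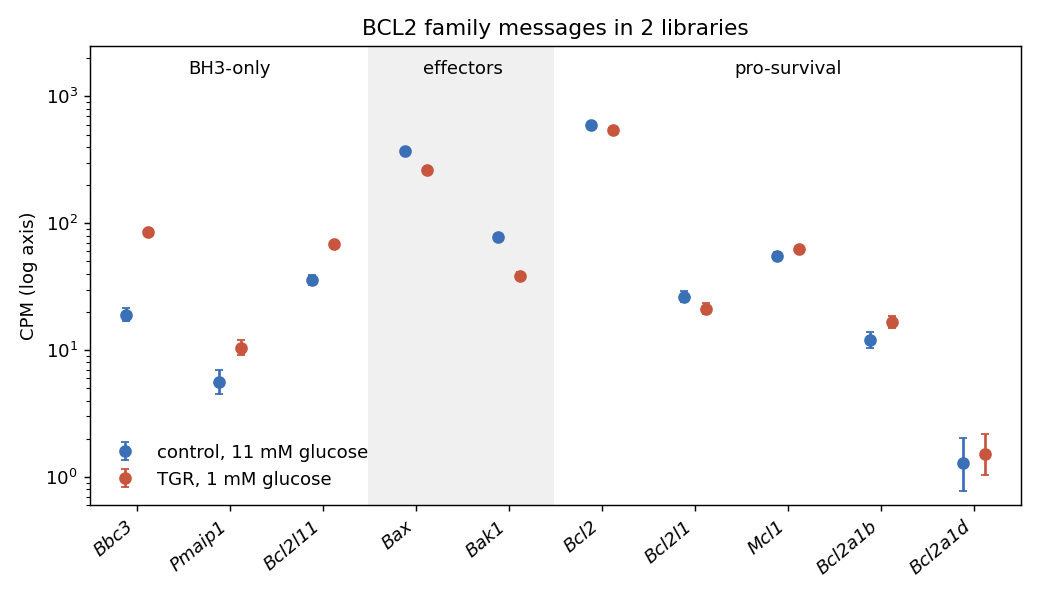
Level of each member (CPM, log axis) in the control and TGR libraries, with bars for the 95% counting interval, ordered by role. The 3 BH3-only genes lie higher in TGR, Bax and Bak1 lower, and the levels run from 590 CPM for Bcl2 to 1.29 CPM for Bcl2a1d in control.

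Weighed as one pool, pro-death and pro-survival messages kept almost the same proportion in the 2 libraries, but the pro-death part was made up differently. The 5 pro-death genes held 42.8% of the 17632 member UMIs in control (42.0 to 43.5) and 42.1% of 21786 in TGR (41.5 to 42.8). The difference of -0.66 percentage points (-1.65 to 0.32) is within counting error. It was -1.19 (-2.19 to -0.19) at a mitochondrial limit of 5% and -1.47 (-2.49 to -0.45) in cells with at least 1000 genes, and those intervals exclude 0. A share of UMIs does not depend on how the library totals are scaled.

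Inside that pool, BH3-only genes held 5.05% of member UMIs in control and 14.8% in TGR, and the effectors 37.7% and 27.3%. The gain of the first and the loss of the second nearly cancel. BH3-only genes were 11.8% of pro-death UMIs in control and 35.1% in TGR. Set against the pro-survival genes alone, they were 8.11% of the joint UMIs in control and 20.4% in TGR. There were 31.0 UMIs of Bcl2 for each of Bbc3 in control (27.6 to 35.1) and 6.36 in TGR (6.04 to 6.70). With Bax and Bak1 left out, the pro-death share is the same 8.11% and 20.4%, and it was 12.2 percentage points higher in TGR. With Bcl2 left out it was 2.29 points lower. Each such share has its own base, so only the signs of these differences are compared. The proportion therefore differs in sign with the members weighed.

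Within phases the libraries compared differently, and over cells of all depths the largest gap was in G2/M. The pro-death share was 35.2% in control and 34.9% in TGR among cells called G1, a difference of -0.37 points (-4.82 to 3.92). Among S cells it was 43.1% and 41.2%, a difference of -1.95 points (-3.81 to -0.09). Among G2/M cells it was 43.2% and 51.0%, a difference of 7.87 points (6.40 to 9.32). These G2/M cells had a median of 4373 UMIs in control and 7872 in TGR, and the share was higher in deeper cells, as given below. TGR cells called G2/M were the one phase of either library in which pro-death UMIs outnumbered pro-survival UMIs, with 0.96 pro-survival UMIs for each pro-death UMI against 1.32 in control.

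The control G1 group is small, with 105 cells and 508 member UMIs, and its intervals are wide. The 5 B cell markers summed to 60.4 CPM in it and to 21.6 CPM in TGR G1 cells, and their part in the G1 comparison was not tested. Among G1 cells 8 members were scored, of which 0 were called higher and 1 lower, where 3.65% of scored genes were called higher and 10.9% lower. The lower one was Bax, at 381 and 254 CPM. Bbc3 had 57.4 CPM in control G1 cells, from 19 UMIs, and 87.8 CPM in TGR G1 cells, a log2 ratio of 0.61 (-0.04 to 1.36). The interval includes equal levels and also a difference of more than 2-fold.

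Among S cells 2 members were called higher, Bbc3 and Bcl2l11, and 2 lower, Bax and Bak1, where 11.2% of scored genes were called higher and 21.2% lower. Bbc3 had 21.1 and 72.7 CPM there, 3.43-fold higher in TGR (2.71 to 4.42). Bak1 had 82.9 and 32.9 CPM, 2.51-fold lower (2.11 to 3.02).

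Among G2/M cells 4 members were called higher and 2 lower, where 11% of scored genes were called higher and 22.1% lower. Bbc3 had 16.9 and 92.4 CPM, 5.46-fold higher (4.63 to 6.50), and Bcl2l11 34.2 and 78.7 CPM, 2.30-fold higher (2.01 to 2.63). Pmaip1, at 5.34 and 12.8 CPM, was 2.37-fold higher, but it was scored only through its TGR level. Bcl2a1b was 1.52-fold higher. Bak1 was 2.09-fold lower, and Bcl2l1, at 26.2 and 15.5 CPM, 1.69-fold lower (1.36 to 2.13). Bcl2 had 572 and 385 CPM, a log2 ratio of -0.57 (-0.64 to -0.51), just short of the limit. In these cells all 3 BH3-only genes were called higher, and Bcl2l1 was the pro-survival gene called lower.

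**Figure D2:**
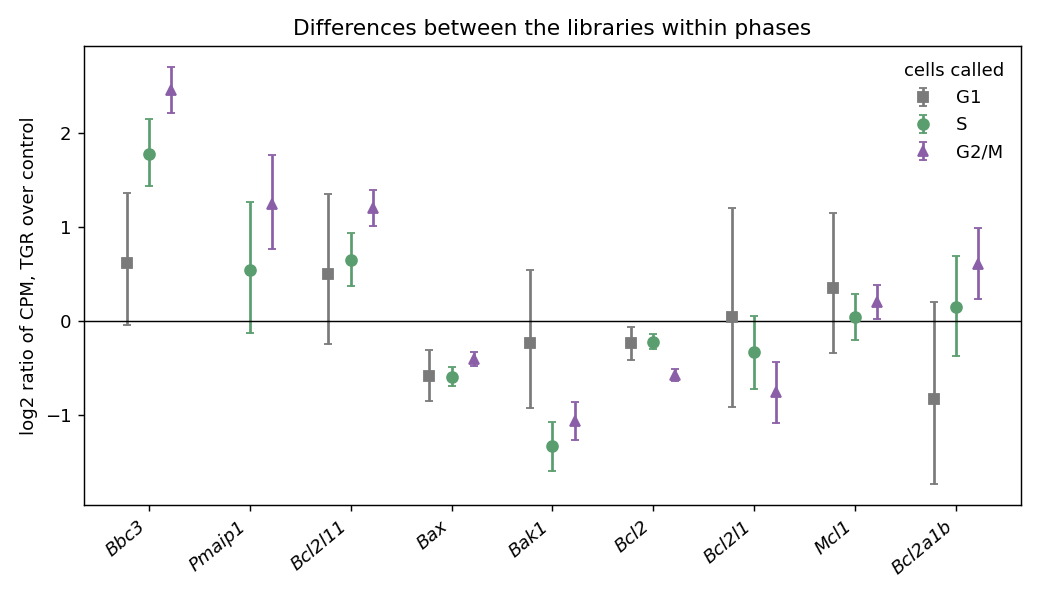
Log2 ratio of CPM, TGR over control, for 9 members within cells called G1, S and G2/M, with 95% counting intervals. Bbc3 lies at 0.61, 1.78 and 2.45 and Bcl2 at -0.24, -0.22 and -0.57. A value is not drawn where a library had fewer than 5 UMIs (Pmaip1 in G1), and Bcl2a1d is left out.

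Bcl2 followed the phases within each library. In TGR it was 745 CPM in G1, 519 in S and 385 in G2/M, and in control 879, 603 and 572. From G1 to G2/M it was 1.94-fold lower in TGR (1.85 to 2.03) and 1.54-fold lower in control (1.36 to 1.73). Bcl2l1 was 28.1 CPM in TGR G1 cells and 15.5 CPM in TGR G2/M cells, 1.81-fold lower (1.42 to 2.32), and Pmaip1 was 1.56-fold higher. These 3 were the members called between the TGR phases, 1 higher and 2 lower, where 12.1% of scored genes were called higher and 3.63% lower. Pmaip1 was scored in this comparison only through its G2/M level, with 8.14 CPM in G1 and 12.8 CPM in G2/M.

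Counted per cell, Bcl2 was likewise lowest in G2/M cells of TGR, although the cells had more UMIs in all. Bcl2 had 4.49, 4.24 and 3.66 UMIs per cell in G1, S and G2/M, while Bax had 1.53, 2.08 and 2.67 and Bbc3 0.53, 0.59 and 0.88. In control Bcl2 had 2.77, 2.66 and 2.89 UMIs per cell.

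Bbc3 had 87.8, 72.7 and 92.4 CPM in G1, S and G2/M cells of TGR, lowest in S. In control it was 57.4, 21.1 and 16.9 CPM, 3.39-fold lower in G2/M than in G1, from 19 and 177 UMIs, with an interval that excludes equal levels. In control 0 members were called higher and 3 lower from G1 to G2/M, Bbc3, Bcl2 and Bcl2a1b, where 8.53% of scored genes were called higher and 5.14% lower. Bcl2a1b rests on 11 UMIs in control G1 cells. Mcl1 showed no phase pattern beyond its intervals, at 65.7, 59.4 and 62.7 CPM in TGR and 51.4, 57.6 and 54.5 CPM in control.

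Taken as shares of member UMIs, the BH3-only genes were 6.89%, 5.41% and 4.83% in control G1, S and G2/M cells and 12.1%, 13.7% and 18.7% in the same phases of TGR. For each UMI of Bbc3 there were 15.3, 28.6 and 33.9 of Bcl2 in control and 8.49, 7.14 and 4.16 in TGR. The 2 libraries thus lay farthest apart in G2/M cells by both measures.

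**Figure D3:**
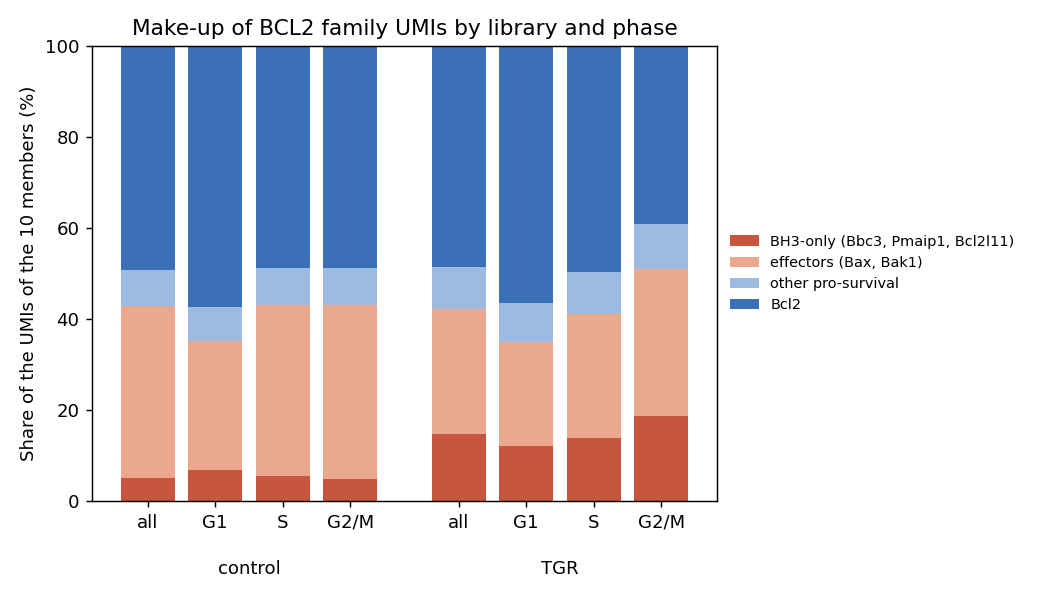
Share (%) of the UMIs of the 10 members that fell on BH3-only genes, effectors, Bcl2 and the other 4 pro-survival genes, for all cells and for each phase of both libraries. The BH3-only share is 5.05% in control and 14.8% in TGR, and the Bcl2 share is lowest in TGR G2/M cells, at 39.2%.

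Cells of different phases also differed in depth. The medians were 5165, 6566.5 and 7872 UMIs in G1, S and G2/M cells of TGR, and 2432, 3836 and 4373 in control. The share was therefore read again in terciles, 3 groups of equal size of the cells of a library ordered by UMIs. It was higher in deeper cells in both libraries, at 35.5%, 42.3% and 45.3% in control and 31.4%, 40.4% and 47.2% in TGR. The difference between the libraries was -4.12, -1.91 and 1.88 points in the lowest, middle and highest tercile. The lowest TGR tercile and the middle control tercile had like medians, 4084 and 4030.5 UMIs, with pro-death shares of 31.4% and 42.3% and Bcl2 at 776 and 607 CPM. Between these terciles the share in G1 cells was 27.2% (25.5 to 28.9) in TGR and 37.7% (30.9 to 44.8) in 30 control cells. In S cells it was 33.4% (30.7 to 36.3) and 41.4% (39.1 to 43.8). In G2/M cells it was 45.3% (41.3 to 49.3) and 43.0% (41.3 to 44.8), with overlapping intervals. The part of depth in the differences between the libraries was not tested.

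Within each tercile of TGR cells the phase difference remained. The pro-death share in G2/M exceeded that in G1 by 18.1, 13.8 and 11.5 points in the lowest, middle and highest tercile, beside 16.2 points in all cells. Bcl2 was 893 and 465 CPM in G1 and G2/M cells of the lowest tercile, 724 and 399 in the middle, and 633 and 371 in the highest. For 2 of the 3 BH3-only genes the difference between the libraries was called in each tercile: Bbc3 had log2 ratios of 1.45, 2.11 and 2.41, and Bcl2l11 0.62, 0.77 and 1.11. Pmaip1 had 0.22 (-0.65 to 1.13) in the lowest tercile and was not called there. In control the pro-death shares in G1 and G2/M were 25.4% and 37.5% in the lowest tercile and 37.7% and 43.0% in the middle. In the highest control tercile they were 47.4% and 44.6%, the other way round. These control terciles held only 64, 30 and 11 G1 cells.

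**Figure D4:**
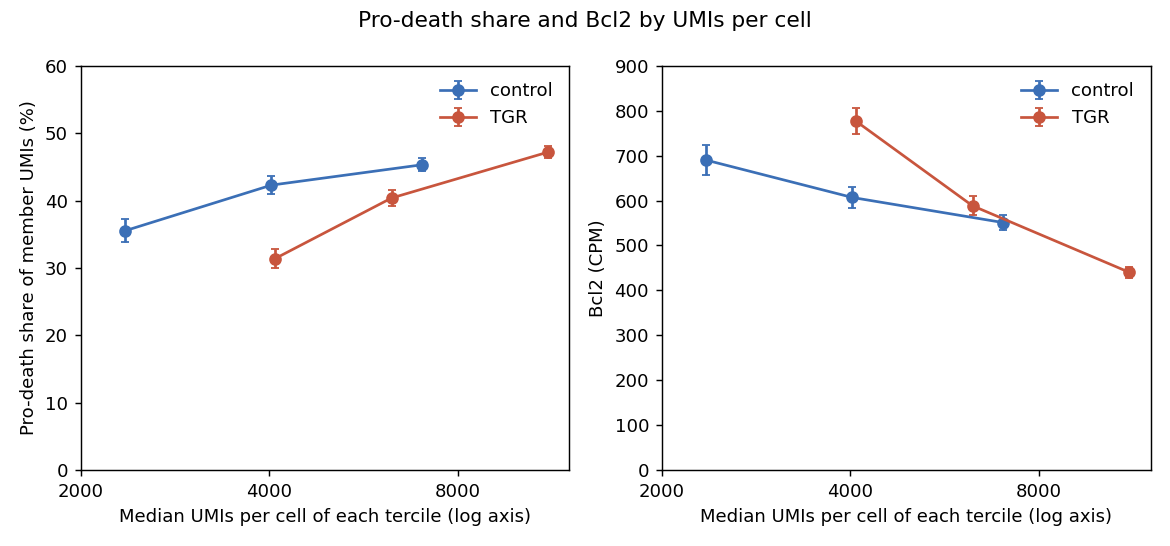
Pro-death share of member UMIs (%, left) and Bcl2 level (CPM, right) in terciles of the cells of each library by UMIs per cell, against the median UMIs of each tercile (log axis), with 95% counting intervals. The share is higher in deeper cells, from 35.5% to 45.3% in control and from 31.4% to 47.2% in TGR, and Bcl2 is lower.

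Ddit3 is the gene of CHOP, a transcription factor induced by cell stress. It was 12.6 CPM in control and 267 CPM in TGR. CHOP is known to act on Bbc3 and Bcl2l11, and to repress Bcl2, in cells under endoplasmic reticulum stress. After thinning to 1500 UMIs, 47 control cells (1.55%) and 757 TGR cells (29.7%) had at least 1 Ddit3 UMI, and the TGR cells were split by this into Ddit3-positive and Ddit3-negative. The negative cells still had 196 CPM of Ddit3 over all their UMIs, beside 426 CPM in the positive cells, so the split is between lower and higher levels.

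Bcl2 was the member that differed most clearly by Ddit3, at 572 CPM in Ddit3-negative and 463 CPM in Ddit3-positive TGR cells, a log2 ratio of -0.31 (-0.37 to -0.24). Bbc3 was 80.0 and 95.1 CPM, a log2 ratio of 0.25 (0.10 to 0.40). Over cells of all phases, the other 8 members, Bcl2l11 and Mcl1 among them, had intervals that include 0. At the 1.5-fold limit 0 members were called higher and 0 lower, where 0.293% of 6490 scored genes were called higher and 0.139% lower.

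The pro-death share was 40.3% in Ddit3-negative and 46.6% in Ddit3-positive cells, a difference of 6.29 points (4.84 to 7.75). It was 46.2% in cells with exactly 1 Ddit3 UMI and 47.9% in those with more. With Bcl2 left out the difference was 1.20 points (-0.34 to 2.71). Bcl2 was 50.7% of member UMIs in Ddit3-negative and 43.8% in Ddit3-positive cells. Leaving it out changes the base of the share, so the 2 differences are not on the same scale. The difference had the same sign in each phase, at 4.29 points in G1, 8.07 in S and 4.43 in G2/M, and in each tercile by UMIs, at 7.6, 8.01 and 3.21 points.

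By phase, Bbc3 separated the Ddit3 groups most in S cells, at 64.3 CPM without and 94.7 CPM with Ddit3, a log2 ratio of 0.56 (0.28 to 0.84). The log2 ratio was 0.14 (-0.13 to 0.41) in G1 and 0.09 (-0.15 to 0.32) in G2/M. Whether the phases differ in this was not tested. Bcl2 was lower with Ddit3 in all 3 phases, with log2 ratios of -0.23, -0.38 and -0.21. Bcl2l11 in G1 cells was 58.7 CPM (51.6 to 66.4) without and 77.1 CPM (64.7 to 91.2) with Ddit3. In S cells it was 60.4 and 62.4 CPM, and in G2/M cells 81.9 CPM without Ddit3 beside 78.7 CPM in all. The effectors together had 300 and 300 CPM in G1, 284 and 295 in S, and 306 and 340 in G2/M, without and with Ddit3.

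The libraries also differed between cells without a Ddit3 UMI after thinning, which in TGR still had the 196 CPM given above. Between Ddit3-negative cells of both libraries Bbc3 was 18.9 CPM in control and 80.0 CPM in TGR, a log2 ratio of 2.08 (1.89 to 2.28), close to the 2.15 of all cells. Bcl2l11 had a log2 ratio of 0.91 and Bak1 of -1.06 there, and Bcl2 of -0.03 (-0.08 to 0.01).

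**Figure D5:**
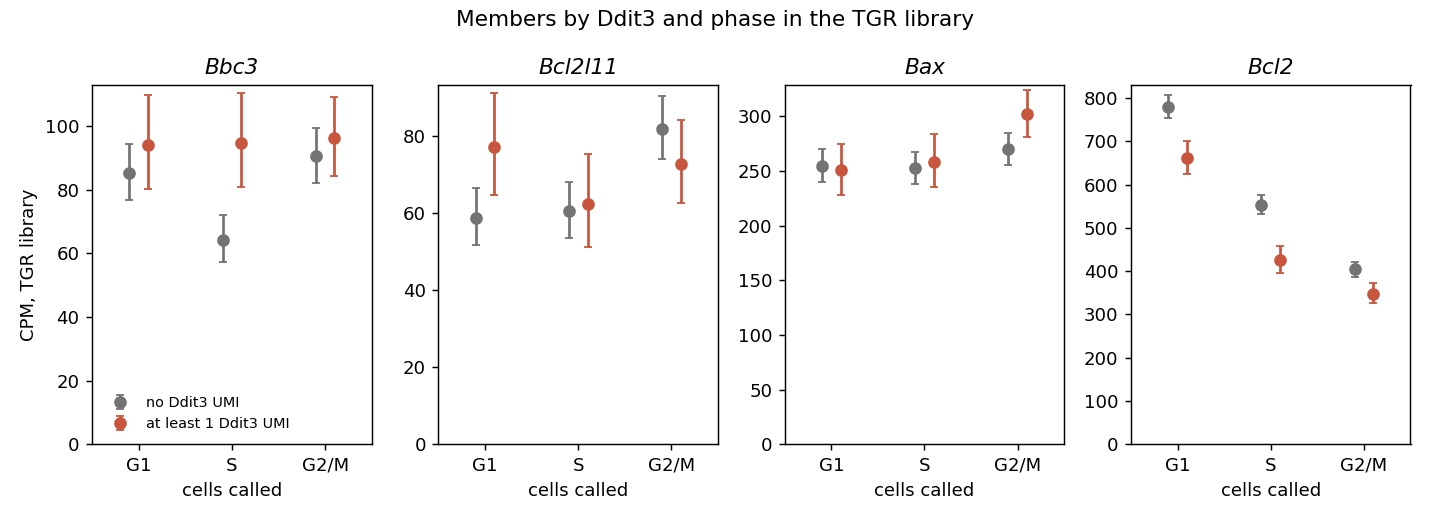
Level (CPM) of Bbc3, Bcl2l11, Bax and Bcl2 in TGR cells without and with a Ddit3 UMI after thinning, by phase, with 95% counting intervals. Bcl2 is lower with Ddit3 in each phase, and Bbc3 differs beyond its intervals in S only, at 64.3 and 94.7 CPM.

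The 209 control barcodes removed for their mitochondrial share had a pro-death share of 15.7%, with Bcl2 at 2090 CPM. Of their 8 scored members Bcl2 was the 1 called higher than in the control cells kept, where 35.9% of scored genes were called higher. The median log2 ratio over all scored genes was 0.55 in this comparison.

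The other genes of the pathway were read by the same rule in all cells, from lists chosen by function, and their counts stand beside the 9.33% of all scored genes called higher and the 21.8% called lower. Of 6 further pro-death family genes only Bad was scored, with 552 UMIs in control and 710 in TGR, and of 4 further pro-survival genes none was, Bcl2l2 having 2.51 and 3.40 CPM. Of 6 less well placed relatives 4 were scored. Bnip3l, a mitophagy receptor, was higher at 116 and 183 CPM, and Bcl2l12 was lower at 20.2 and 13.4 CPM.

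Downstream of the effectors, 18 of 22 death machinery genes were scored, with 2 called higher and 7 lower and a median log2 ratio of -0.42. Cycs, the cytochrome c released through BAX and BAK pores, had levels of 198 and 76.6 CPM and was thus 2.59-fold lower in TGR. Birc5 (survivin), which is also in the list used to call G2/M cells, was 465 and 155 CPM. Parp1, a caspase substrate, was 71.6 and 33.1 CPM, and Endog, a mitochondrial nuclease, 49.8 and 25.7 CPM. The 2 called higher, named after their values were seen, were Birc2 and Birc3, at 8.15 and 13.9 CPM and at 7.13 and 11.4 CPM, each scored only through TGR. Birc2 and Birc3, like Birc5, are inhibitors of apoptosis. The list mixes such genes with genes that promote death, so its counts and median give no direction for death.

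Of 11 death receptor genes 7 were scored, with 1 called higher and 0 lower and a median log2 ratio of 0.05. Fas was 17.7 CPM in control and 27.1 CPM in TGR, and Cflar, the inhibitor of caspase-8, 33.0 and 34.0 CPM. Of 20 regulators of the members 17 were scored, 4 higher and 1 lower. The higher ones were Ddit3, Trib3 (15.8 and 136 CPM) and Atf4 (105 and 297 CPM) of the integrated stress response, and Il7r (34.6 and 70.6 CPM), whose ligand keeps T cells alive. The lower one, named after its value was seen, was Bag1 (228 and 140 CPM), a BCL-2 binding co-chaperone. Trp53, the p53 gene, had 75.6 and 55.5 CPM, and Foxo1 and Foxo3 had 52.4 and 55.1 CPM and 13.8 and 14.0 CPM, also named outside the rule.

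Levels over the 10 groups of library, phase and Ddit3 status with at least 30 cells were used to find the genes most like 3 members, among 3528 genes. The groups share libraries and depth, so Pearson's r of log2(CPM + 5) is a description only. Bbc3 was most like Smap2 (r = 0.98) and Pdcd4 (0.97). Bcl2 was most like Socs1 (0.98), Osm (0.95) and Pim1 (0.91), and Mcl1 most like Mt1, Nob1 and Eif4ebp1 (0.95 each).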

How the data were processed

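Single-cell RNA was counted in 1 control and 1 TGR library. The authors deposited whole-number UMI counts per gene and barcode, not normalized. Cell Ranger 2.2, Seurat 3 and build mm10 are named in the submitters' processing notes without their roles, and barcode filters are not given in the sources used here. Barcodes with at least 500 genes and under 10% mitochondrial UMIs were kept, 3127 of 3336 and 2546 of 2548, and all 209 and 2 removed exceeded the mitochondrial limit.

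UMIs were summed per library or group of cells. Log2 ratios had 0.5 UMI added per side, scaled by totals, with intervals from the exact Clopper-Pearson split, and shares had exact binomial intervals (scipy 1.17.1). Differences of shares combine these limits by Newcombe's method. No test was possible with 1 library per condition. Phases were scored in both libraries together (scanpy 1.11.5, 43 S and 54 G2/M genes) and Ddit3 status set on cells thinned to 1500 UMIs. For this 91 control cells were too shallow. Levels used all UMIs. Promoter windows are from RefSeq and gene positions from GENCODE M21, both GRCm38, the assembly of mm10. Of 27998 gene identifiers 27722 matched.

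Alternatives were edgeR 4.0.16 TMM and DESeq2 1.42.0 size factors, other totals, filters, thinning, phases and members. Terciles by UMIs, sums without Bcl2 or the effectors and a G1 class of at most 10 cell cycle UMIs were chosen after seeing the data. The members and lists were chosen with earlier results of these data known. Named were all members, Ddit3, up to 4 called genes per list, its most abundant scored gene, and the 3 genes most like Bbc3, Mcl1 and Bcl2, of which 1 is not reported here. The ratios were tested on simulated data.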

Additional observations from a re-analysis of the deposited data

Results flagged for a closer look

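Bcl2 was the member called higher in the 209 control barcodes that the mitochondrial limit removed. They enter a comparison of the libraries only in the alternative with no mitochondrial limit, given below. These barcodes had a median of 1545 UMIs, 849 genes and 17.3% mitochondrial UMIs. Bcl2 was 2090 CPM in them, from 781 UMIs, against 590 CPM in the control cells kept, 3.54-fold higher (3.29 to 3.81). Bcl2 alone was 80.7% of their member UMIs, and the pro-death share was 15.7% against 42.8%. Of the 8 members scored, Bcl2 was the 1 called higher, where 35.9% of 7713 scored genes were called higher, so the difference falls in a comparison in which many genes differed. Ribosomal protein genes held 16.1% of all UMIs in these barcodes and 39.8% in the control cells kept. The median log2 ratio was 0.55 over all scored genes and -0.01 over the scored members. Bbc3 had 8 UMIs and 21.4 CPM in these barcodes, Bcl2l11 34.8 CPM and Mcl1 56.2 CPM, each within its interval of the level in the cells kept. Malat1, a nuclear RNA named after its value was seen, was 9494 CPM against 2219 CPM. The 5 matched CD8 T cell markers summed to 6947 CPM against 2288 CPM, and the 5 B cell markers to 142 CPM against 25.9 CPM. A higher level than in the cells kept was thus not particular to Bcl2. What these barcodes hold was not tested.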

How the results depend on the processing

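The same 4 genes (Bbc3, Pmaip1, Bcl2l11 and Bak1) were called under TMM factors, DESeq2 size factors, no filter on low values, a mitochondrial limit of 5% or none, thinning to 1500 UMIs, and without the deepest 5% of cells. Thinning lowered the log2 ratio of Bbc3 from 2.15 to 1.75 (1.43 to 2.09). It brought Bak1 from -1.01 to -0.71 (-0.99 to -0.44). Both moved beyond their main intervals, while Pmaip1 and Bcl2l11 stayed within theirs. Totals without ribosomal protein and mitochondrial genes shifted every log2 ratio by 0.26 and added Bcl2a1b. Within G1 cells the count was 1. Of 110 alternative values of member ratios 73 moved by less than the counting interval and 37 by more. No called ratio changed sign. The difference in pro-death share between the libraries, -0.66 points, was 0.73 with no mitochondrial limit, -2.29 without Bcl2, 12.2 without Bax and Bak1, and -4.12, -1.91 and 1.88 in the lowest, middle and highest tercile by UMIs. Among G1 cells it was 6.09 without Bax and Bak1 and -11.8 (-38.2 to 12.3) with G1 taken as at most 1 cell cycle UMI, which left 4 control cells. It was -4.73 (-8.70 to -0.84) in cells with at least 1000 genes, and -1.61 with at most 10 cell cycle UMIs. G2/M cells in place of G1 gave 7.87. The difference by Ddit3, 6.29 points, was 12.6 with Ddit3 taken from all UMIs, where deeper cells are more often positive, 4.29, 8.07 and 4.43 within G1, S and G2/M, 1.20 without Bcl2, and 8.01 and 3.21 in the middle and highest tercile. The cause of these shifts was not tested. No paired analysis was possible because each condition had 1 library. Depth limits the control G1 cells, with 508 member UMIs, Pmaip1 and the Bcl2a1 genes most.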
